A study of Mus musculus with 17 samples.

Results

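Broad open regions of neuronal chromatin in the nucleus accumbens were described across 17 ATAC-seq libraries. The regions were chosen by the peak calls themselves. Peaks of all libraries on chromosomes 1 to 19 were merged where they overlapped, and a merged region was kept if every library had at least 1 peak in it and if it spanned at least 3000 bp. This rule kept 9557 of 277655 merged regions, which together spanned 59.9 Mb. Another 26613 regions were called in every library but were under 3000 bp, and they serve as the comparison below. A further 796 regions were wide enough but were not called in every library.

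ATAC-seq, which marks accessible DNA by where Tn5 transposase can cut and tag it, was performed on neuronal (NeuN+) nuclei that were sorted from the bilateral nucleus accumbens of C57BL/6 mice (C57BL/6J in the study's methods) aged 52 to 54 days. The groups were diestrus, proestrus and male mice that received 10 mg/kg cocaine intraperitoneally 1 hour before sacrifice, and diestrus, proestrus and male controls that received no cocaine. Each group had 3 libraries, except male cocaine with 2, and per the study's methods each library pooled tissue from 3 animals of its group. Because controls were not described as injected, the injection and the drug cannot be told apart, and because each library mixes neuron types, fewer nuclei of a type and less open DNA per nucleus cannot be told apart either.

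Accessible DNA is usually confined to short stretches at promoters and enhancers, where transcription factors displace nucleosomes. Some loci are instead open over long stretches. Such stretches are known from strongly transcribed genes, from CpG-rich promoters and from clusters of enhancers at genes that define a cell type. In the nucleus accumbens most neurons are medium spiny neurons, GABAergic projection cells that read dopamine through D1 or D2 receptors and cAMP. Immediate-early genes, which neurons induce within minutes of strong activity, belong to the fastest responders to psychostimulants.

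To show what kind of DNA these regions hold, 5 promoters and 2 sites without any annotated 5′ end were printed from the genome of the same build (mm10/GRCm38, RefSeq assembly), each 200 bases long and with every CpG in capitals. The promoters end just before the annotated 5′ end of a gene of the widest members or of the widest members at listed genes. They belong to 1700010I14Rik (chr17:8988133-8988332, plus strand), Cbarp (chr10:80140836-80141035, minus strand), Rab3a (chr8:70754479-70754678, plus strand), Adcy5 (chr16:35154677-35154876, plus strand) and Pde1b (chr15:103502834-103503033, plus strand), and none of their bases lies in an annotated exon. The 2 other sites are centred on the median summit of a gene body region in Pde10a (chr17:8858776-8858975) and of one in Anks1b (chr10:90873046-90873245), both printed from the plus strand.
1700010I14Rik: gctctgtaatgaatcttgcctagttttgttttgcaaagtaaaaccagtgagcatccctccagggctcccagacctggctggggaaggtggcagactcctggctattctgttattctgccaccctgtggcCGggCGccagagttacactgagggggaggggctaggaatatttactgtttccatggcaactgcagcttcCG
Cbarp: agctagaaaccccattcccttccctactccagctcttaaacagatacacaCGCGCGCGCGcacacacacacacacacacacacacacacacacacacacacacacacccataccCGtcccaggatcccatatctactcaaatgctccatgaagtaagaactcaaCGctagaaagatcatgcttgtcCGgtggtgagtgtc
Rab3a: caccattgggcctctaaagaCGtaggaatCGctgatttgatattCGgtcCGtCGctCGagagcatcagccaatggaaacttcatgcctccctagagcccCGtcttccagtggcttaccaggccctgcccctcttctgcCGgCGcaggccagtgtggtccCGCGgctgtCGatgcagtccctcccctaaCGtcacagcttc
Adcy5: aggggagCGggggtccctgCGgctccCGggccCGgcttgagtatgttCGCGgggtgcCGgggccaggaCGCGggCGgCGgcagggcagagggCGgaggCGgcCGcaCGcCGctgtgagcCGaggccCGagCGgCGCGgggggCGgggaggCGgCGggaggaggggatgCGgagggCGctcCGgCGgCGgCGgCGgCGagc
Pde1b: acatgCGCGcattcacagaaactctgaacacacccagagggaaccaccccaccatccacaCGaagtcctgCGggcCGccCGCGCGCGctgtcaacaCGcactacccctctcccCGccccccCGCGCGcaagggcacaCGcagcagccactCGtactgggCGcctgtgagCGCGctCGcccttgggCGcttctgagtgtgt
Pde10a: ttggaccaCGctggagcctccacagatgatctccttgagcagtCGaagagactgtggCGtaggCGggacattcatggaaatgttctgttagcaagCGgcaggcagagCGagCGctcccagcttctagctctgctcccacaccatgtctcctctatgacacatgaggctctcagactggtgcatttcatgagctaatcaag
Anks1b: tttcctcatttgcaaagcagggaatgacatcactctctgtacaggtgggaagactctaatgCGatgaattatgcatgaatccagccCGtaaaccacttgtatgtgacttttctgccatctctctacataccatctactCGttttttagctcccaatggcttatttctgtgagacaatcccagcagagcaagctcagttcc
The promoter of Adcy5 held 32 CpGs and that of Pde1b 21. Rab3a had 13 and Cbarp 8, and the Cbarp stretch contains a long CA repeat. CpGs were sparse in the other sequences, with 7 at the Pde10a site and 3 each in 1700010I14Rik and Anks1b.

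Members were 4690 bp wide at the median (interquartile range 3638 to 6840 bp), and the widest reached 209530 bp. Most were near the lower limit, since 5269 were 3 to 5 kb wide and 3201 were 5 to 10 kb wide. Only 202 of the 9557 members reached 20 kb, and 12 of them reached 50 kb. Just inside the limit lay regions of 3000 bp near C030005K15Rik, Tent4a and Gpbp1, with median covered lengths of 1737, 674 and 1660 bp. Just outside it lay regions of 2998, 2998 and 2999 bp in Csmd3, Atrn and Lrrc7, with median covered lengths of 1464, 1122 and 916 bp. Covered lengths on either side of the limit thus overlapped.

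The width of a member was a property of the merged peaks, and most members were mosaics of several shorter peaks. A single library called a median of 3 peaks in a member and covered a median of 2675 bp of it. In 45.5% of members no library had a peak of 3000 bp by itself. The core, meaning bases covered in all 17 libraries, had a median of 1154 bp, reached 3000 bp in 730 members and was absent from 352, where different libraries covered different bases. Bases covered in at least 9 libraries summed to 3000 bp or more in 3618 members. The widest single peak of any library was 60003 bp long and lay in Phactr1.

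Nearly 1 in 2 members lay at a promoter. A member counted as promoter if it held the annotated 5′ end of a protein-coding gene (GENCODE vM21) or lay within 1 kb of it. This applied to 4707 members (49.3%), against 18.5% of the narrower regions called in every library. Another 4028 members (42.1%) lay in a gene body away from its 5′ end, against 46.7% of narrower regions, and 822 (8.60%) were intergenic, against 34.8%. The strongest point of the peaks gave a similar contrast, since the median summit lay within 1 kb of a coding 5′ end in 44.1% of members and in 17.7% of narrower regions. The promoter share was 45.6% at 3 to 5 kb, 52.8% at 5 to 10 kb, 56.6% at 10 to 20 kb, 57.4% at 20 to 50 kb and 41.7% among the 12 regions of 50 kb and wider. A wider region can reach a 5′ end by its size alone. By the median summit the shares in the same classes were 42.9%, 46.9%, 43.6%, 31.1% and 25%, without a steady rise with width. Enrichment over background came from the authors' peak caller and was taken as the highest value among a library's peaks in a region. It had a median of 11.5-fold in members and 5.51-fold in narrower regions. Members held a median of 3 peaks per library and narrower regions 1, which by itself favours a higher maximum in members. Within the members it was 17.2-fold at promoters, 7.14-fold in gene bodies and 10.2-fold between genes.

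**Figure D1:**
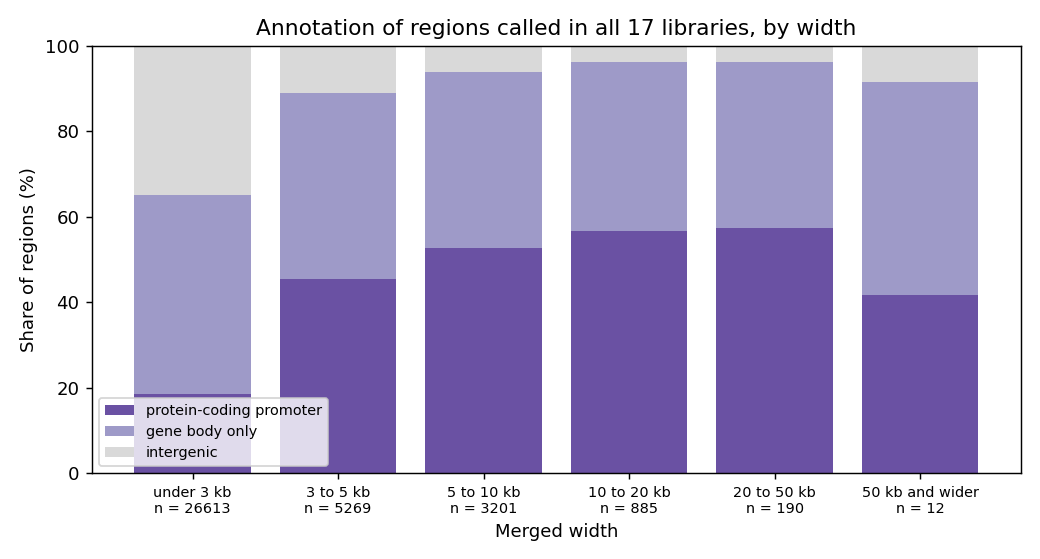
Share of regions (%, vertical axis) that lie at a protein-coding promoter, in a gene body or between genes, for regions called in all 17 libraries, by merged width (horizontal axis, with the number of regions). The promoter share is 18.5% under 3 kb and between 41.7% and 57.4% in the wider classes. By the median summit, not drawn here, it is 17.7% under 3 kb and between 25% and 46.9% in the wider classes.

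Members at promoters often spanned several genes. The 5′ ends of at least 2 protein-coding genes fell to the same member in 903 cases (9.45%), and in 754 of these the genes lay on both strands. There were 36 members with 4 or more. The one with most, 8 coding 5′ ends, covered a histone gene cluster from Hist1h3c to Hist1h1a (chr13:23741327-23765969), whose genes encode the nucleosome's own proteins. A member of 58636 bp on chromosome 10 held the 5′ ends of Atp5d, Cbarp, Midn, Cirbp, 1600002K03Rik and Efna2. Another of 48845 bp on the same chromosome held those of March9, Cdk4, Tspan31 and Agap2 and had a core of 20817 bp. Gene-dense neighbourhoods contributed some of the widest members, and there the cover cannot be assigned to 1 gene.

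Base composition followed the annotation. In windows reaching 500 bp to either side of the median summit, GC content had a median of 54.8% in members and 46.7% in narrower regions, and the observed over expected CpG ratio was 0.529 and 0.260. Both limits of a CpG island-like window (GC of at least 50% and a ratio of at least 0.6) were met by 4267 members (44.6%) and by 4259 of the 26613 narrower regions. At promoters the 2 sets were closer, with 81.0% of members and 74.2% of narrower regions. In gene bodies the shares were 8.66% and 3.14%, so gene body members were mostly CpG-poor. The GC box (GGGCGG, either strand), bound by Sp and Klf factors, occurred in 59.9% of member windows and 31.7% of narrower ones. The AP-1 site (TGACTCA or TGAGTCA), bound by Fos and Jun proteins, showed the opposite order with 17.4% and 25.3%. Within promoters it was found in 9.28% of members and 9.66% of narrower regions, and within gene bodies in 1007 of 4028 members and 3547 of 12422 narrower regions. The CRE (TGACGTCA), bound by CREB, was found in 4.03% and 1.82%, and the homeodomain core TAATTA in 16.4% and 25.9%. Within promoters the GC box was found in 90.0% of members and 84.4% of narrower regions. The CRE was found there in 5.99% and 4.73%, and TAATTA in 7.82% and 9.94%. Within gene bodies these shares were 29.1% and 19.3%, 1.84% and 1.14%, and 24.5% and 29.1%. The pooled shares also reflect that a larger part of members lay at promoters. These shares describe letters in a window and not binding.

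To ask in which direction broad promoters extended, the 2769 members that held exactly 1 annotated 5′ end, of a coding gene, were aligned on it. The merged region reached a median of 1808 bp upstream and 2807 bp downstream, and it reached farther downstream in 2094 members (75.6%). In the 3407 narrower regions of the same kind it was 746 and 988 bp, and 66.8% reached farther downstream. Single libraries showed the same asymmetry. Proestrus controls covered 1614 ± 139 bp upstream and 2584 ± 196 bp downstream (mean ± SD over 3 libraries), and male cocaine libraries 817 ± 68.4 and 1461 ± 146 bp (n = 2). At 100 bp downstream of the 5′ end the mean share of covered members was between 94.7% and 97.7% in all groups, a closeness that the rule favours because every library had to have a peak in each member. The group means lay farther apart on the flanks. At 1.1 kb upstream, cover ran from 53.8% in proestrus controls to 16.6% in male cocaine libraries, with the other 4 groups between 41.1% and 48.1%.

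**Figure D2:**
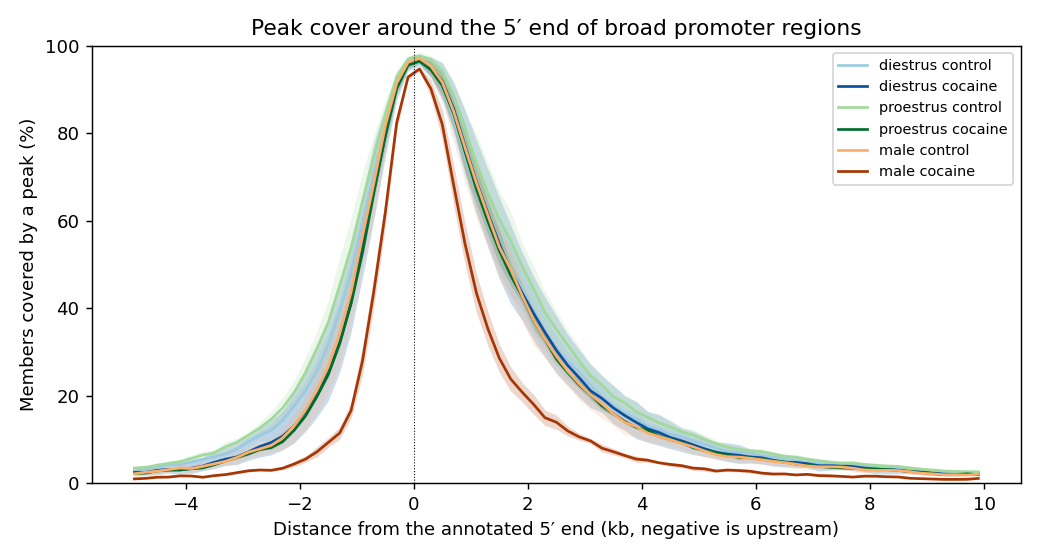
Share of the 2769 members with a single annotated 5′ end that are covered by a peak (%, vertical axis) against the distance from that 5′ end (kb, horizontal axis, negative is upstream). Lines are group means and shading spans the lowest to the highest library. The curves meet near the 5′ end and the male cocaine curve is the narrowest.

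The widest members were gene bodies of neuronal genes. Phactr1, a regulator of actin and protein phosphatase 1, held the widest (chr13:42704668-42914197, 209530 bp), which lay wholly inside the gene. In it, diestrus controls covered 182952, 199360 and 199592 bp, diestrus cocaine libraries 204113, 197162 and 183663 bp, proestrus controls 200497, 201927 and 204768 bp, and proestrus cocaine libraries 200918, 179267 and 200429 bp. Male controls covered 184880, 160361 and 182414 bp and male cocaine libraries 95064 and 69911 bp. The female groups overlapped, and the 2 male cocaine values were the smallest of the 17. Together 10 members held 99.6% of the 457904 bp of Phactr1. The second widest (chr6:31048297-31223975, 175679 bp) held no coding 5′ end but those of the noncoding genes Lncpint, Mir29a and Mir29b-1, and Klf14, the nearest coding gene, was 89219 bp away. Libraries covered between 80346 and 172090 bp of it.

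Next came Pde10a, the phosphodiesterase that hydrolyses cAMP and cGMP in medium spiny neurons. Its gene body member (chr17:8797517-8889427, 91911 bp) was covered over 88200 ± 3082 bp in diestrus controls and 76808 ± 15854 bp in diestrus cocaine libraries. In proestrus the values were 89241 ± 841 bp in controls and 76377 ± 877 bp after cocaine. In males they were 75999 ± 10473 bp in controls and 33600.5 ± 8567 bp after cocaine. A neighbouring member of 85422 bp held the 5′ end of 1700010I14Rik and 79681 bp of Pde10a. Adcy5, the main adenylyl cyclase of the striatum, makes cAMP downstream of dopamine receptors. It had a gene body member of 66516 bp and a promoter member of 46246 bp. Baiap2, an actin-regulating adaptor of dendritic spines, lay entirely in a member of 88262 bp. Others of the 12 widest were in Anks1b (70582 bp), a postsynaptic scaffold, in the RNA-binding Celf2 (62765 bp), in Phactr1 again (51688 bp), at the synaptic vesicle GTPase gene Rab3a with Mpv17l2, Pik3r2 and Mast3 (54161 bp), and in the cluster at Midn described above. Phactr1 and Pde10a thus both appeared more than once in this ranking.

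Measured over whole genes, 6939 of 20807 protein-coding genes overlapped a member, and 1592 had at least 50% of their length in members. Of the 4787 genes of 50000 bp or longer, 68 (1.42%) did. Besides Baiap2 and Phactr1 these included Rap1gap (99.1%), an inhibitor of Rap signalling, the calcium pump gene Atp2b1 (97.7%), Bcl11b (97.4%), a transcription factor required for medium spiny neurons, and Adcy5 (97.0%). Rgs9 (90.8%), which shortens D2 receptor signalling, the de novo DNA methyltransferase gene Dnmt3a (87.3%), the calcineurin gene Ppp3ca (82.1%), Camk2a (81.2%) and the postsynaptic scaffold gene Shank3 (77.0%) belonged to the same group. Peaks of single libraries covered from 23.2% to 96.1% of the Adcy5 body, with a median of 80.5%, and the lowest value came from male cocaine library 2. In Rgs9 the range was 13.6% to 87.3%. The 3 proestrus controls, at 87.3%, 77.5% and 83.5%, exceeded all other libraries in Rgs9.

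**Figure D3:**
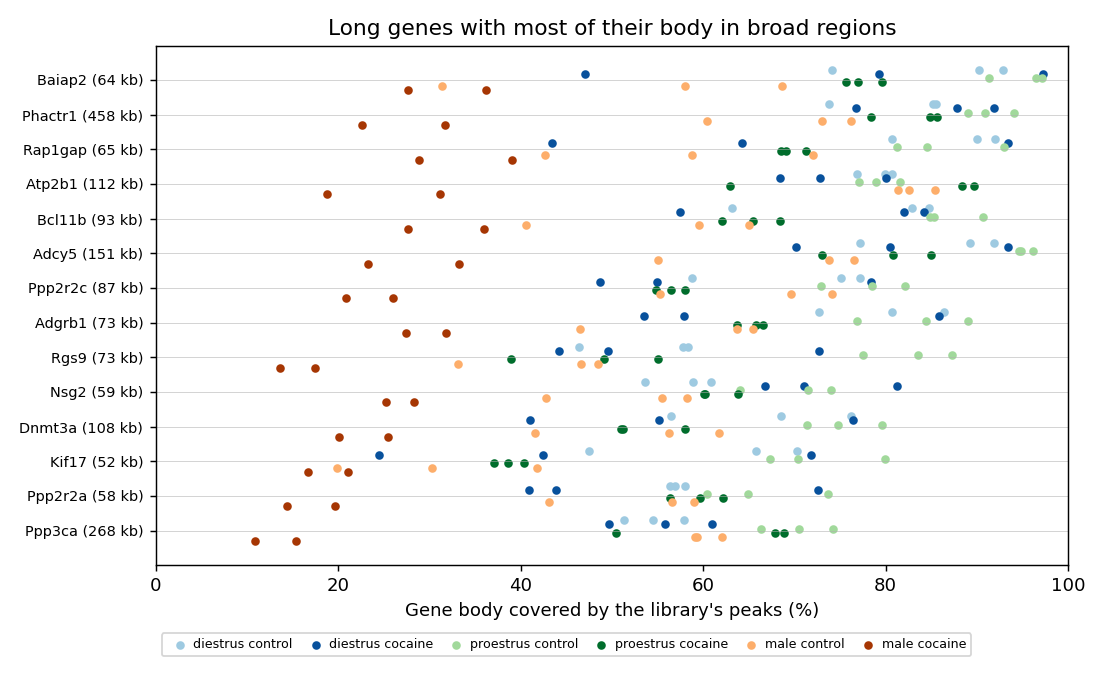
Share of the gene body covered by each library's peaks (%, horizontal axis) for the 14 named protein-coding genes of 50 kb or longer with the largest share in members, 1 row per gene with its length. Each point is a library, coloured by group. The 2 male cocaine libraries have the lowest values in most rows, and Adcy5 ranges from 23.2% to 96.1%.

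The members with the strongest enrichment were of another kind. The 4 highest medians were 297-fold at Gm10718 and Gm10717 (chr9:3021936-3028274), 226-fold at Gm10722 and Gm11168 (chr9:2999865-3005292), 221-fold at a locus of noncoding genes including Gm26917 and Gm42418 (chr17:39842832-39849000) and 86.2-fold at Gm21738 (chr14:19415582-19419813). Between 81.7% and 95.6% of the bases were marked as repeats in the assembly at 3 of them, and 6.76% at the locus on chromosome 17. They were covered almost end to end in every library, for example over 6145 to 6169 of 6169 bp on chromosome 17. Blacklisted intervals were not removed from the deposited calls. Over all members, 19 (0.199%) consisted of repeats by more than 50%.

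Genes were then read by their roles, from lists of known members. Of all 20807 protein-coding genes, 27.7% had their 5′ end in or within 1 kb of a member, and this share is the background for the lists. It includes 7210 genes with no peak near the 5′ end in any library. Each gene was read at a single annotated 5′ end, the outer end of its gene record, and alternative transcript starts were not examined. Among the 11226 genes at a region of any width called in every library, 51.4% were at a member. Neuronal markers were at members in 6 of 6 cases (Rbfox3, Snap25, Syt1, Map2, Tubb3 and Nefl), and medium spiny neuron markers in 6 of 7, with Drd2 in a narrower region. Astrocyte (0 of 5), microglia (0 of 5), endothelial (0 of 4) and cortical excitatory markers (0 of 6) had none. Peaks were not called in any library near 3 of the astrocyte, 4 of the microglial and 4 of the endothelial markers. Some others had peaks within 1 kb of the 5′ end in part of the libraries. Among glial markers these were Gfap (16 libraries), P2ry12 (4), Slc1a3 (2), Olig2 (2), Mog (1), Mag (1) and Sox10 (1). Among cortical excitatory markers they were Tbr1 (11), Slc17a7 (9), Neurod6 (5) and Emx1 (3). Of 6 oligodendrocyte markers, Mbp lay at a member of 3768 bp and Olig1 at a narrower region called in every library. Hox genes, which pattern the hindbrain and spinal cord, had 0 of 39, and 38 of them had no peak in any library. Markers of the labelled cell type were thus open in every library, and of the other marker lists Mbp, Olig1 and a region at Slc17a7 were the only entries called in all 17.

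Of the functional lists, the 2 lists of activity-induced genes had the highest shares. Among immediate-early transcription factors 21 of 26 (80.8%) lay at members, with a median width of 6560 bp. Egr1 had the widest (32715 bp, core 13191 bp), followed by Junb (28465 bp), Jund (14634 bp), Egr3 (12502 bp) and Npas4 (10508 bp), and Fos itself had 6265 bp. The Junb member also held 4 other coding 5′ ends. Of the other 5, Fosl1, Maff and Klf2 lay at narrower regions called in every library. The annotated 5′ end of Nr4a2 had a peak within 1 kb in 3 libraries and that of Atf3 in 0. Of activity-induced effectors, which act at synapses and in feedback, 19 of 24 (79.2%) did, including the clock gene Per1 (30499 bp), the postsynaptic scaffold gene Homer1 (29157 bp), Vgf (16947 bp) and Arc (14297 bp). The annotated 5′ end of Bdnf had a peak within 1 kb in 5 libraries, and its other transcript starts were not examined.

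Synaptic genes and signalling genes of medium spiny neurons were next. Synaptic scaffold and adhesion genes lay at members in 19 of 26 cases (73.1%), with Dlg4 (24438 bp) and Camk2a (21799 bp) among the widest. Medium spiny neuron signalling genes did in 15 of 23 cases (65.2%) and had the largest median width of the lists fixed for function, 12041 bp. After Adcy5 and Pde1b (45080 bp), a calcium-activated phosphodiesterase, these were Ppp1r1b (22791 bp), which encodes the phosphatase inhibitor DARPP-32, and the muscarinic receptor gene Chrm4 (22311 bp). The D1 receptor gene Drd1 (4638 bp) and the peptide genes Penk (12041 bp) and Tac1 (3192 bp) were members, while the 5′ ends of Drd2, Gnal, Oprk1 and Oprd1 were called in every library without being members. Chromatin regulators did in 29 of 45 cases (64.4%, widest Kmt2e with 25334 bp), ribosomal protein genes in 49 of 78 (62.8%, widest Rpl19 with 37314 bp) and striatal and forebrain transcription factors in 30 of 55 (54.5%, among them Meis2 with 35563 bp and Bcl11a with 29140 bp). Ribosomal protein genes, which every cell uses, thus had a share within the range of the neuronal lists. Among listed genes at a region called in every library, 87.5% (immediate-early), 86.4% (effectors), 82.6% (synaptic) and 78.9% (medium spiny neuron signalling) were at members. For chromatin regulators it was 78.4%, for striatal and forebrain transcription factors 71.4% and for ribosomal protein genes 65.3%, the lowest. Of all coding genes at such regions 51.4% were at members.

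**Figure D4:**
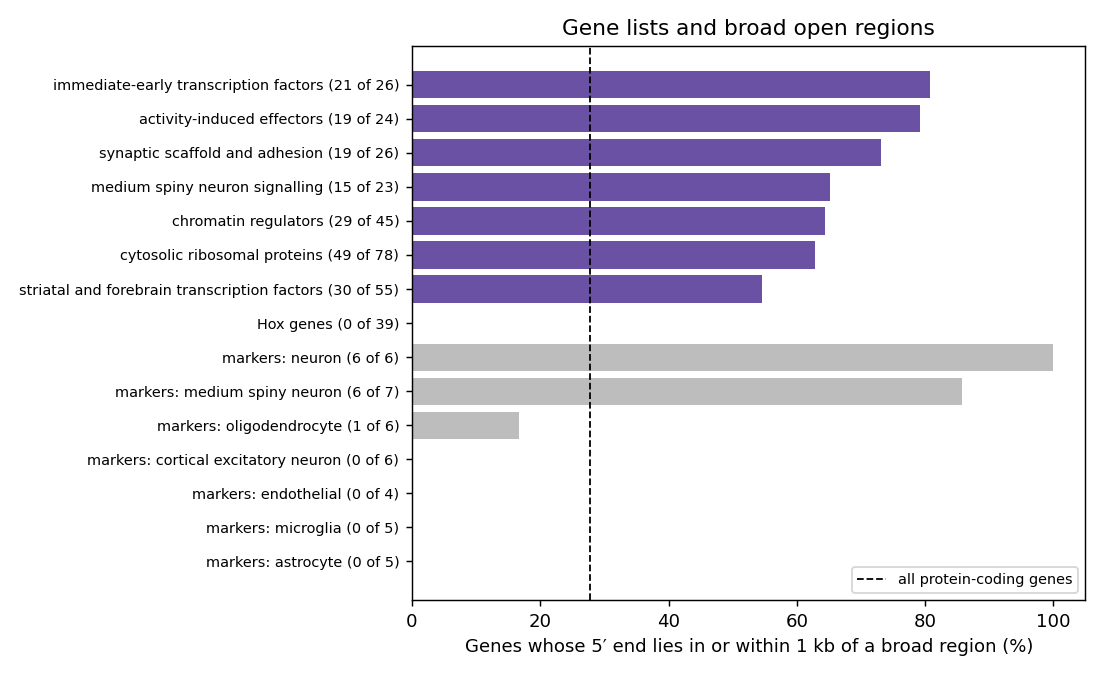
Share of the genes of each list whose 5′ end lies in or within 1 kb of a member (%, horizontal axis), with counts beside each name. Purple bars are functional lists, grey bars are cell type markers, and the dashed line marks the 27.7% of all protein-coding genes. Among coding genes at a region called in every library the share is 51.4%, which is not drawn.

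Cover of the members varied widely between libraries. The share of member length under a library's own peaks ranged from 30.8% (male cocaine library 2) to 76.3% (proestrus control library 3), with a median of 59.2%. By group it was 65.0% ± 5.75 in diestrus controls, 59.5% ± 12.3 in diestrus cocaine, 70.4% ± 5.80 in proestrus controls, 58.7% ± 0.722 in proestrus cocaine, 58.2% ± 6.87 in male controls (n = 3 each) and 33.4% ± 3.69 in male cocaine (n = 2). Since the rule used peaks of all these libraries, the values are a description. Proestrus controls had the highest and male cocaine the lowest mean, and diestrus cocaine the widest spread, from 49.98% to 73.5%. In the narrower regions the group means were 59.3%, 59.3%, 58.9%, 59.5%, 61.4% and 42.6% in the same order. Proestrus controls, at 64.7%, 70.1% and 76.3% of member length, overlapped diestrus controls and diestrus cocaine libraries. Libraries held 74532 to 155025 peaks on these chromosomes, and the 2 male cocaine libraries, at 86626 and 74532, had the fewest. The same libraries covered least of the members and had the fewest peaks in them, 2.48 and 2.26 per member against 3.13 to 3.81 in the other 15.

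**Figure D5:**
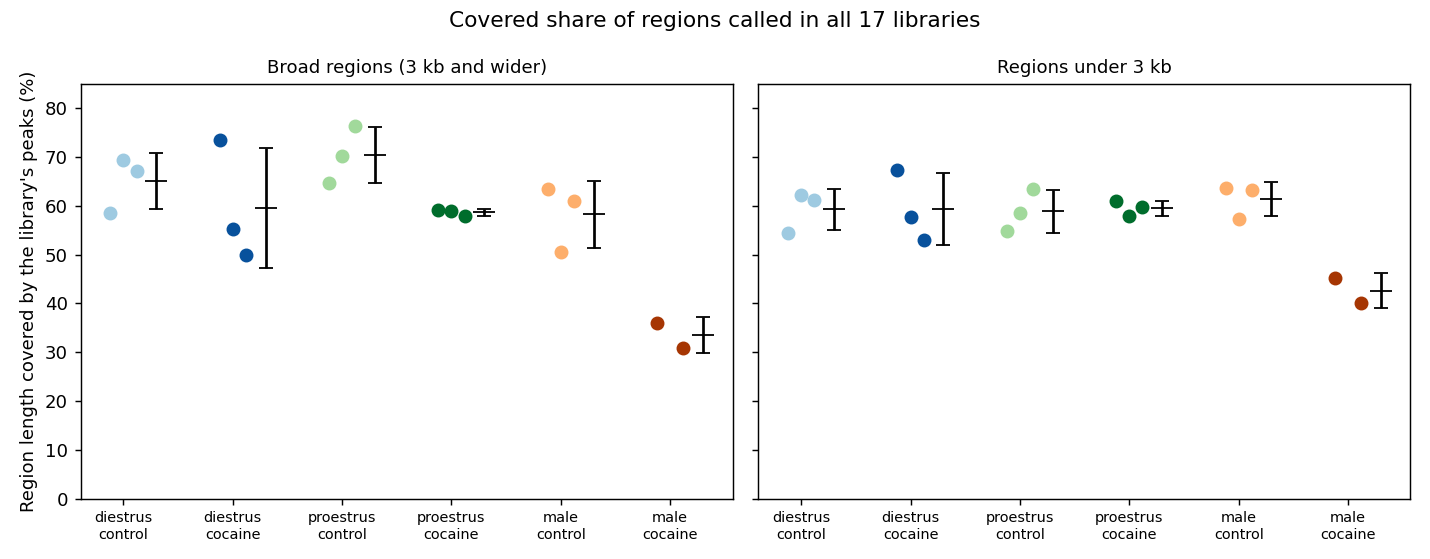
Share of region length covered by a library's peaks (%, vertical axis) in members (left) and in narrower regions called in all libraries (right). Points are libraries by group, and bars are mean ± SD. In members male cocaine libraries sit at 36.0% and 30.8%, below all others, and proestrus cocaine libraries at 57.8% to 59.2%, below the 3 proestrus controls.

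Whether cocaine altered this cover was tested within diestrus, proestrus and male mice. Because every library had helped to choose the members, each of the 3 strata was tested on regions that the same rule picked in the libraries of the other 2 strata alone, which gave 8320 regions for diestrus, 7927 for proestrus and 9280 for males. In diestrus the covered share was 69.2% ± 5.43 in controls and 64.1% ± 11.6 after cocaine, a difference of -5.10 percentage points within the spread (two-sided exact permutation test, p = 0.6, adjusted p = 0.655 over 12 tests). That difference was -11.6 points without diestrus cocaine library 1 and -0.463 points without diestrus cocaine library 3. In proestrus it was 76.3% ± 5.26 and 65.2% ± 1.03, a difference of -11.1 points (exact p = 0.1, adjusted p = 0.15). In males it was 58.2% ± 6.86 and 33.7% ± 3.77, a difference of -24.5 points (exact p = 0.1, adjusted p = 0.15). The groups did not overlap in proestrus and males, but 3 against 3 or 2 against 3 libraries cannot give a p below 0.1. Averaged over the 3 strata, with libraries reassigned only inside a stratum, the difference was -13.6 points (exact p = 0.00575, adjusted p = 0.0345), with lower group means after cocaine in 3 of 3 strata. It was -8.08 points over the female strata alone (exact p = 0.07), so this call rested on the male libraries. The 2 male cocaine libraries also had the fewest peaks, and the part of that in the difference was not tested. A setting with equal numbers of peaks is given next, with its limit.

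The number of separate peaks per region also fell on average over the strata, by 0.477 (exact p = 0.003, adjusted p = 0.0345). The values were 3.40 ± 0.223 in diestrus controls and 3.10 ± 0.0763 after cocaine, 3.18 ± 0.248 and 3.06 ± 0.0657 in proestrus, and 3.34 ± 0.151 and 2.33 ± 0.164 in males. Over the female strata alone the difference was -0.207 (exact p = 0.06). The call was also lost, with a change of sign to 0.120 (exact p = 0.291), when the 74532 strongest peaks of each library were used. The covered share kept its direction and call under that setting, with -11.0 points (exact p = 0.00725). That setting kept every peak of male cocaine library 2 but only the strongest peaks of the other libraries. It equalized the number of peaks and not their length or the sequencing depth. An effect of cocaine and a smaller peak set therefore cannot be told apart by it.

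The share of all peak length that lay in these regions moved differently. It was 38.3% ± 1.38 in diestrus controls and 39.0% ± 3.16 after cocaine (exact p = 0.7), 40.1% ± 1.22 and 36.3% ± 1.63 in proestrus (exact p = 0.1), and 36.9% ± 0.757 and 42.0% ± 0.764 in males (exact p = 0.1). In proestrus every cocaine library was below every control, and in males every cocaine library was above every control. Over the strata the mean difference was 0.692 points (exact p = 0.589). In males these regions thus held a larger part of a smaller peak set after cocaine, and in proestrus a smaller part.

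To find single regions with altered cover, limma was fitted in each stratum to log2(covered bp + 100) over all regions, of any width, that the libraries of the other strata called, with Benjamini-Hochberg adjustment at 0.05. In diestrus 0 of 8320 broad regions passed, against 0.00768% of all 39042 tested regions that rose and 0.00512% that fell. At an unadjusted p under 0.05, limma gave 528 broad regions that rose and 268 that fell (6.35% and 3.22%), against 6.63% and 3.3% of all tested regions. A limma fit of all 17 libraries called 21 members that rose and 3 that fell (0.220% and 0.0314%), against 0.152% and 0.0276% of the 36170 regions in that fit. In proestrus 5 of 7927 broad regions rose and 73 fell (0.0631% and 0.921%), against 0.291% and 0.374% of all 38796 tested. In males 2 of 9280 rose and 3317 fell (0.0216% and 35.7%), against 0.164% and 21.4% of all 41471 tested. The median change was -0.13, -0.21 and -0.69 on the log2 scale in broad regions of diestrus, proestrus and males, and -0.04, -0.01 and -0.48 over all tested regions, and it was -0.42 in narrower regions of males. Relative to the median of each library the male calls shrank to 8 that rose and 493 that fell (0.0862% and 5.31% of broad regions), against 0.477% and 3.73% of all tested regions under that scaling. These counts also hung on single libraries. The male count was 272 without male control library 3, the proestrus count 0 without proestrus cocaine library 4 and 325 without proestrus cocaine library 2, and the diestrus count 147 without diestrus cocaine library 1.

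By annotation, broad regions in gene bodies fell most often in proestrus and males. In proestrus 48 of 3203 gene body regions fell (1.499%), 6 of 654 intergenic regions (0.917%) and 19 of 4070 promoter regions (0.467%). Of all tested regions of any width and annotation, 0.374% fell in proestrus and 21.4% in males. These counts are without centring on library medians, which shrank the male calls as given above. In males 1760 of 4018 gene body regions (43.8%), 280 of 787 intergenic regions (35.6%) and 1277 of 4475 promoter regions (28.5%) fell. The median log2 change in males was -0.95 in gene bodies and -0.57 at promoters.

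The proestrus falls with the largest change were at Kcnt1, Abr and Rbfox3. At the promoter of Kcnt1, a sodium-activated potassium channel (chr2:25862484-25866090), controls covered 1552, 2124 and 2288 bp and cocaine libraries 609, 471 and 289 bp, a log2 change of -1.93 ± 0.26 (SE, limma adjusted p = 0.0394). In Abr, a regulator of small GTPases (chr11:76496994-76502203), they covered 2745, 3233 and 3626 against 993, 778 and 878 bp (-1.74 ± 0.16, limma adjusted p = 0.0114). In Rbfox3, which encodes NeuN (chr11:118492112-118497406), they covered 4014, 4197 and 4302 against 1551, 1158 and 1105 bp (-1.65 ± 0.16, limma adjusted p = 0.0135). Controls and cocaine libraries did not overlap at any of the 3.

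Rises were fewer. In Ttc39b (chr4:83277700-83281287) proestrus controls covered 400, 626 and 559 bp and cocaine libraries 1461, 1541 and 2096 bp (1.52 ± 0.20, limma adjusted p = 0.0394). At the promoter of Olfm3, a secreted neuronal protein (chr3:114903174-114907052), cover was 1494, 1571 and 1522 bp against 3045, 3227 and 2983 bp (0.97 ± 0.11, limma adjusted p = 0.0265). In Camsap2, which binds microtubule minus ends (chr1:136267235-136270824), it was 1211, 1218 and 1220 bp against 2518, 2147 and 2238 bp (0.86 ± 0.12, limma adjusted p = 0.0409). All 6 named proestrus regions passed also when libraries were centred on their medians.

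In males the largest falls were to no cover at all. A region in Hivep2 (chr10:14084690-14090200) was covered over 3033, 3348 and 3675 bp in controls and had no peak in either cocaine library, and the same held for one in Slc4a4, a bicarbonate cotransporter gene (chr5:89106104-89111298, 3269, 2645 and 2955 bp), and for a second in Hivep2 (chr10:13972311-13976104, 2223, 2949 and 2754 bp), each with a limma adjusted p of 0.00164. Since these had no peak in male cocaine libraries, they are not among the 9557 members, and no fold change is given. The only 2 broad regions that rose lay near Sfi1 (chr11:3100951-3104249, 1442, 1218 and 1504 bp in controls, 3088 and 3239 bp after cocaine, limma adjusted p = 0.0127) and in Ppp1r2 (chr16:31246165-31253491, 1158, 1240 and 1223 bp against 2187 and 1825 bp, limma adjusted p = 0.0333).

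At listed genes, all calls but 1 were made in males. In diestrus 0 of the listed regions passed, and in proestrus 1 did, at Shank1, where a region of 6877 bp fell from 4614 to 2250 bp (log2 change -1.004 ± 0.14, limma adjusted p = 0.0434). In males 7 of 19 immediate-early, 8 of 19 effector, 7 of 15 medium spiny neuron signalling, 4 of 19 synaptic, 4 of 28 chromatin, 12 of 44 ribosomal and 6 of 27 striatal transcription factor regions fell, and 0 rose in any of these lists. As shares these were 36.8%, 42.1%, 46.7%, 21.1%, 14.3%, 27.3% and 22.2%, against 35.7% of all broad regions and 21.4% of all tested regions that fell. Their median log2 changes lay between -0.66 and -0.33, against -0.69 for all broad regions. After centring, 2, 1 and 1 of these falls were left, at Homer1 and Trib1, at Chrm4 and at Rpl35.

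Homer1 is an example of a fall that was left after centring, and its change was larger than the median of each list. Its member was covered over 21945, 23010 and 21928 bp in male controls and 9359 and 7816 bp in male cocaine libraries. In proestrus it was covered over 23746, 24695 and 24239 bp in controls and 24616, 22543 and 24839 bp after cocaine, and in diestrus over 18494, 19246 and 20568 against 22184, 24603 and 20230 bp. Only in males did the groups separate, with a log2 change of -1.37 ± 0.14 (limma adjusted p = 0.0076), or -0.82 after centring (limma adjusted p = 0.0488). At Chrm4 it was -1.34 ± 0.17 (limma adjusted p = 0.0128). Whether these effects differ between the strata was not tested.

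Fos, the best known immediate-early gene, had a member on chromosome 12 (chr12:85471302-85477566). Controls covered 3275, 4323 and 3621 bp in diestrus, 3490, 4812 and 4861 bp in proestrus and 4162, 3426 and 4344 bp in males. After cocaine the values were 4055, 3561 and 2467 bp in diestrus, 3277, 4027 and 2953 bp in proestrus and 2197 and 1688 bp in males. The female groups overlapped and the male groups did not. On the held-out regions the log2 changes were -0.22 ± 0.21 (limma adjusted p = 0.642), -0.32 ± 0.16 (0.292) and -0.97 ± 0.18 (0.0268).

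Penk, the enkephalin precursor of D2-type neurons, had higher cover after cocaine in diestrus. Its member (chr4:4130697-4142737) was covered over 5040, 6149 and 6442 bp in diestrus controls and 10470, 10807 and 10729 bp after cocaine, over 6685, 7999 and 9725 against 9752, 9371 and 9916 bp in proestrus, and over 4824, 4162 and 4875 against 4630 and 2745 bp in males. On the held-out region the diestrus change was 0.82 ± 0.15, which did not pass (limma adjusted p = 0.428). Meis2, a transcription factor of striatal neurons, also had higher values in the 3 diestrus cocaine libraries than in any diestrus control. These were 27920, 32342 and 26346 against 14282, 18693 and 18348 bp. The held-out log2 change of 0.73 ± 0.16 did not pass (limma adjusted p = 0.431). Penk and Meis2 were picked for description after their values were seen.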

How the data were processed

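ATAC-seq reads of neuronal nuclei from 17 libraries in 6 groups were trimmed, aligned to mm10 with BWA-MEM and called as peaks by MACS2, per library, by the authors. Versions and options are not given in the sources used here. The labels also list featureCounts and DESeq2, whose output was not used here. The deposited peak lists give a score (the −log10 q multiplied and truncated to a whole number by the peak caller), a ratio of summit pileup over local background (fold enrichment), and −log10 p and q values, none of them normalized between libraries by the authors. Blacklisted intervals and Y peaks were still present. The peak lists hold no read counts, and read totals from the study's supplement were not used here, so no counting interval was given.

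Peaks on chromosomes 1 to 19 overlapping by at least 1 bp were merged. Covered length is the number of bases under a library's peaks. Groups were compared by two-sided exact permutation tests (numpy 2.4.6) with Benjamini-Hochberg adjustment over 12 tests (statsmodels 0.14.6). They were also compared by limma 3.58.1 (R 4.3.3) on log2(covered bp + 100), tested on simulated data. Replicates are separate pools of 3 animals. One diestrus cocaine library had no stage in its characteristics and was grouped by its title. Named regions are the widest, the most covered, those with the largest core or enrichment, those nearest the width limit, those with the largest called changes per stratum and those at listed genes. Members and lists were chosen with earlier results of these data known. Annotation was GENCODE vM21, and sequences came from RefSeq GRCm38.p6. Alternatives varied the width limit, merging, peak threshold, pseudocount, centring, replicate block and libraries. Some items named by these rules are not reported here.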

Additional observations from a re-analysis of the deposited data

Results flagged for a closer look

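The share of a library's peak length that lay in broad regions differed in direction between strata. It was lower by 3.73 percentage points after cocaine in proestrus (a difference of -3.73), where all 3 cocaine libraries lay below the controls, and higher by 5.10 points in males, where both cocaine libraries lay above the controls. The difference between the strata was not tested. Groups of 2 or 3 libraries are too small for a check for single outlying libraries.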

How the results depend on the processing

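Of 116 alternative values other than those leaving out 1 library, 84 counted as unchanged. A difference did so if it kept its direction and, where tested, its side of the threshold. A count of regions had to stay within a fixed fold limit. The promoter share had to stay inside its 95% Wilson interval over members (48.3% to 50.3%). The median covered length had to move by less than the spread between libraries. The covered share kept its direction in every stratum under every alternative run, but with 1 library left out its diestrus value ranged from -11.6 to -0.463 points. A minimum width of 2000 or 4000 bp gave 15757 or 6185 regions, a promoter share of 43.3% or 52.3% and a median covered length of 1921 or 3476 bp. The promoter share was 54.5% with peaks of −log10 q of at least 5, 53.4% with the 74532 strongest peaks of each library, 50.4% with merging at 100 bp of overlap, 47.7181% when 16 libraries sufficed, 47.7217% without both male cocaine libraries (chosen after seeing the data), 44.1% by summit and 56.3% with any annotated 5′ end. With equal numbers of strongest peaks, the share of peak length turned to -0.744 points in diestrus and -0.997 over the strata, and peaks per region to 0.0238 in diestrus, 0.492 in males and 0.120 over the strata. The mean share was -0.148 on members chosen in all libraries. In the female strata alone (chosen after seeing the data) the mean differences were -8.08 points of cover, -1.51 points of share and -0.207 peaks per region. The cause of these changes was not tested.

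The number of broad regions called by limma moved most. It was 24 in diestrus with a fit of all 17 libraries. In proestrus it was 145 after centring, 35 and 682 with pseudocounts of 10 and 1000 bp, and 186 with a mean cover of at least 500 bp. In males it was 501 after centring, 2073 with −log10 q of at least 5 and 4998 with the fit of all 17. With 1 library left out, it ranged from 0 to 147 in diestrus, 0 to 325 in proestrus and 272 to 3413 in males, the share of peak length in diestrus from -0.570 (without diestrus cocaine library 3) to 2.47 points, and peaks per region in proestrus from -0.238 to 0.00999 (without proestrus control library 1). With the replicate number as a replicate block, limma called 0 in each stratum, and the mean paired difference of cover was -5.10, -7.82 and -23.2 points in diestrus, proestrus and males. Deviations of same-numbered libraries from their group means had correlations between -0.154 and 0.0934. Those of differently numbered libraries lay between -0.153 and 0.147. With 2 or 3 libraries per group such deviations are constrained, so this check cannot decide whether the numbers pair the libraries.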
